A study of Homo sapiens with 6 samples.

Results

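The 40 genes described here act in G2 phase and mitosis, and were chosen by name for their roles as cyclins, mitotic kinases and spindle checkpoint, kinetochore, kinesin and spindle genes. The rule itself uses no measured value, but earlier results of these data were known when the genes were chosen. All 40 were among the 30015 genes of the deposited table, and all 40 had a mean of at least 10 normalized counts, so they were among the 15251 genes tested. The cells were HMV-II, a human melanoma line from the vagina, grown in F10 medium with serum and without drug treatment. Poly(A) RNA was sequenced in 3 libraries labelled Vector (genotype WT) and 3 labelled shEZH2 (genotype EZH2 knockdown). According to the methods, stable lines were made with lentiviral particles carrying an shRNA against EZH2 or a scrambled control shRNA, and were selected with puromycin. The header of the table names 1 shRNA, so an effect of that hairpin on other genes cannot be told apart from the loss of EZH2. No label says whether replicates were separate cultures or whether a line came from 1 clone, so the p-values measure the spread between these libraries, which may be technical.

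EZH2 is the methyltransferase of the PRC2 complex, which marks histone H3 at lysine 27. Genes of G2 and mitosis are switched on late in the cell cycle, when the B-MYB and FOXM1 factors join the MuvB complex at their promoters, and are held off early in the cycle by the DREAM complex. CDK1 with cyclin B then drives entry into mitosis, the spindle checkpoint holds chromosomes until kinetochores are attached, and the anaphase-promoting complex with CDC20 ends mitosis by marking cyclin B and securin for destruction. In dividing tumour cells, these genes are read as a proliferation programme. In RNA from a whole culture, a different share of cells in G2 and mitosis and a different amount of RNA per cell cannot be told apart.

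The promoters are shown because a pair of sequence elements is known from the promoters of many such genes. Windows of 300 bases, from 250 before to 50 after the transcript start, came from RefSeq on GRCh38.p14 and matched 33 of the 40 genes; AURKA, BIRC5, BUB3, FOXM1, TPX2, TTK and UBE2C had no entry. The element TTTGAA, searched first, is the core of the cell cycle genes homology region and was read on both strands (TTCAAA on the other). The other element was CCAAT, the NF-Y box, also read on both strands (ATTGG on the other). TTTGAA was found for 24 of the 33 genes (72.7%), against 15.2% of all 35116 promoters and 18.2% of genes. CCAAT was found for 27 of the 33 (81.8%), against 34.6% of promoters and 39.7% of genes. Both were found for 20 of the 33 (60.6%), against 5.90% of promoters and 7.26% of genes. Some genes have several annotated starts, which raises the chance of a match, so the share of genes is the closer comparison. The 7 promoters printed 5′ to 3′ on the strand of the gene are those of the 5 genes that fell and, for contrast, those of CCNB1 and CDC20, which were not called. Capitals mark both elements on either strand, and a match on 1 strand can overlap a match on the other, as the NF-Y boxes at positions -69 and -66 of HMMR do (counted from the start, with -1 just before it). The windows lie at chr4:103198294-103198593 (CENPE, minus strand), chr1:214602945-214603244 (CENPF, plus strand), chr1:197146620-197146919 (ASPM, minus strand), chr10:128126374-128126673 (MKI67, minus strand), chr5:163460382-163460681 (HMMR, plus strand), chr5:69166900-69167199 (CCNB1, plus strand) and chr1:43358731-43359030 (CDC20, plus strand).
CENPE: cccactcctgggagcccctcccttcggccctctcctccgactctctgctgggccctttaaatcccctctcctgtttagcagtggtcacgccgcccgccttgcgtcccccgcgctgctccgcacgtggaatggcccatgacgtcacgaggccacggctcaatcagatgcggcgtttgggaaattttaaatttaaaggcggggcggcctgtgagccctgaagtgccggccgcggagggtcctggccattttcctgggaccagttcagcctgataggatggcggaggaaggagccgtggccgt
CENPF: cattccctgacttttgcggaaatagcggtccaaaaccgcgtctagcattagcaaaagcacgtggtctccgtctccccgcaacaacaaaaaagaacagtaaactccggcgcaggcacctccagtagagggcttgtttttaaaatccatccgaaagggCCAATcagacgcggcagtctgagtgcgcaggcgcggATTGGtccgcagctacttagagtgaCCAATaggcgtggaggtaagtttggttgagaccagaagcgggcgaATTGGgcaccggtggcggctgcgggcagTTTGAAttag
ASPM: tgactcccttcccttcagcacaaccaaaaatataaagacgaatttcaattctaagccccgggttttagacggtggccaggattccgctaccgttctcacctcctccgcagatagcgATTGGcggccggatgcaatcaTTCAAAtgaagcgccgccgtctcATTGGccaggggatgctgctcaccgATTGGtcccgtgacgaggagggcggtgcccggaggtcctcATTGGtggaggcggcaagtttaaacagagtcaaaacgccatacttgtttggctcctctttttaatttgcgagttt
MKI67: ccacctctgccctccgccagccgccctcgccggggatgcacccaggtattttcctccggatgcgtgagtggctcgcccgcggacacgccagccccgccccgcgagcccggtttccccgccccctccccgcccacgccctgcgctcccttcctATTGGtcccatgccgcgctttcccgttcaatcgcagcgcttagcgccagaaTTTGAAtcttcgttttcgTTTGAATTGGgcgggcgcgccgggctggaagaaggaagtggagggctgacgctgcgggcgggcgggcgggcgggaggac
HMMR: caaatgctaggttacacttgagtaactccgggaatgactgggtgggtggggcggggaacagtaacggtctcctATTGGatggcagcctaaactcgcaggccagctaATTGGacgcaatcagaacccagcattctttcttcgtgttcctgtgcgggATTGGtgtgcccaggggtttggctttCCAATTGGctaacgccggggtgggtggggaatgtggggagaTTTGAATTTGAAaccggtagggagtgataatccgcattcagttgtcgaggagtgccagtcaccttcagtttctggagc
CCNB1: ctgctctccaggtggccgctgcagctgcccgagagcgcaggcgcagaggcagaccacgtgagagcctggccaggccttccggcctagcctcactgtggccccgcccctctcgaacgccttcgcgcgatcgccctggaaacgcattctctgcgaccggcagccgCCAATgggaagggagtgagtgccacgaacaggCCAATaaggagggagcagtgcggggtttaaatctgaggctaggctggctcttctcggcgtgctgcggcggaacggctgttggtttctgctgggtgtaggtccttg
CDC20: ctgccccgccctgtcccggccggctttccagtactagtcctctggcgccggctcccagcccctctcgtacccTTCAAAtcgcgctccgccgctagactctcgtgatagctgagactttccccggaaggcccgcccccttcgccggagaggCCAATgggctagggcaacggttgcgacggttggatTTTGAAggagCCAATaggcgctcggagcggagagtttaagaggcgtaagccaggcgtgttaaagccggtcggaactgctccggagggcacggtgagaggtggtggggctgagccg

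Among the 5 genes that fell, 4 had both elements in their window, and CENPE had neither. Among the other 28 genes with a promoter, 16 had both. A match describes the letters of the window and says nothing of binding in these cells. Only these exact letters were searched, so a window without a match, as for CENPE, may still hold a variant of an element.

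For EZH2 itself, the normalized counts in replicate order were 483, 437 and 552 with Vector and 237, 247 and 225 with shEZH2. Every shEZH2 library lay below every Vector library, with a log2 fold change of -1.04 ± 0.14 (SE) and an adjusted p of 0.0142 by limma with Benjamini-Hochberg adjustment. This adjusted p ranged from 3.72e-08 to 0.128 over the alternative settings, and the exact two-sided permutation test gave 0.1, the smallest p that 3 against 3 libraries allow. Libraries held 13400290 to 15923029 reads in Vector and 16129171 to 19128939 in shEZH2. Vector replicate 2 stood apart from the other Vector libraries, with a mean chi-square of counts per gene (near 1 for sampling noise alone) of 119 and 117 against them, while replicates 1 and 3 gave 2.14 against each other. The shEZH2 pairs gave 23.9, 14.3 and 6.49, so these libraries also differed by more than sampling noise. Among the 40 genes, the median deviation of Vector replicate 2 from the mean of all 6 was -0.35 for the 20 shortest and 0.29 for the 20 longest. For shEZH2 replicate 1 it was 0.026 and -0.25. Values without Vector replicate 2 are given beside many of the results below. All 8 melanocytic markers were present, including SOX10 and PMEL, with summed normalized counts of 75515 to 100744 in Vector and 78898 to 85355 in shEZH2. Summed leukocyte markers were 10.2 to 33.8 in Vector and 15.2 to 18.4 in shEZH2, and fibroblast markers 176 to 246 and 251 to 314, so that every shEZH2 sum was above every Vector sum. LUM (120 to 275 over the 6 libraries) and COL1A2 (28.7 to 77.4) carried that sum, with COL1A1, COL3A1, PDGFRB and DCN at or near 0. Epithelial markers summed to 1309 to 1722 in Vector and 1570 to 1678 in shEZH2, mostly CDH1, KRT8 and KRT18, with EPCAM at 0 to 4.07. The part of these markers in the results was not tested.

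Most of the 40 genes were called in neither direction with EZH2 knockdown. Of the 40 genes, 5 fell and 0 rose at the study's threshold, an unadjusted limma p under 0.05 with a change of over 1.5-fold. The genes that fell were CENPE and CENPF at the kinetochore, ASPM and HMMR at the spindle, and MKI67 at the surface of mitotic chromosomes. The drivers of mitotic entry CCNB1, CCNB2, CDK1, PLK1, AURKA, AURKB and FOXM1 were called in neither direction. The same threshold called 7.07% of all genes tested lower and 7.55% higher, so 5 of 40 genes lower lay above the background share and 0 of 40 higher lay below it. The genes that fell, all but HMMR, were also the longest of the 40. Among genes at least as long as CENPE, 14.4% were called lower.

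After Benjamini-Hochberg adjustment over all genes tested, limma called 2 of the 40 genes lower (CENPE and CENPF) and 0 higher, against 1.84% and 2.28% of all genes. At an unadjusted p under 0.05 alone, 7 were lower and 2 higher, against 11.3% and 11.9% of all genes. On the recovered reads, DESeq2 called 5 lower and 0 higher at the threshold (8.66% and 6.85% of all genes), and 6 lower and 1 higher after adjustment (5.73% and 5.05%). The edgeR quasi-likelihood test called 5 lower and 0 higher at the threshold (7.81% and 7.12%), and 3 lower and 0 higher after adjustment (1.97% and 2.49%). By ranges alone, 10 genes had every shEZH2 library below every Vector library and 7 had every one above, against 16.5% and 18.4% of all genes.

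The median log2 fold change of the 40 genes was -0.0067, with 20 genes above 0 and 20 below, beside a median of 0.039 over all genes tested. With TMM scaling the medians were 0.028 for the 40 genes and 0.073 for all genes, so the sign of the small median changed with the scaling. They were -0.069 and -0.0059 without Vector replicate 2. The heatmap of deviations by library shows the same 40 genes in order of role, and Vector replicate 2 is the column that differs most from its group.

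**Figure D1:**
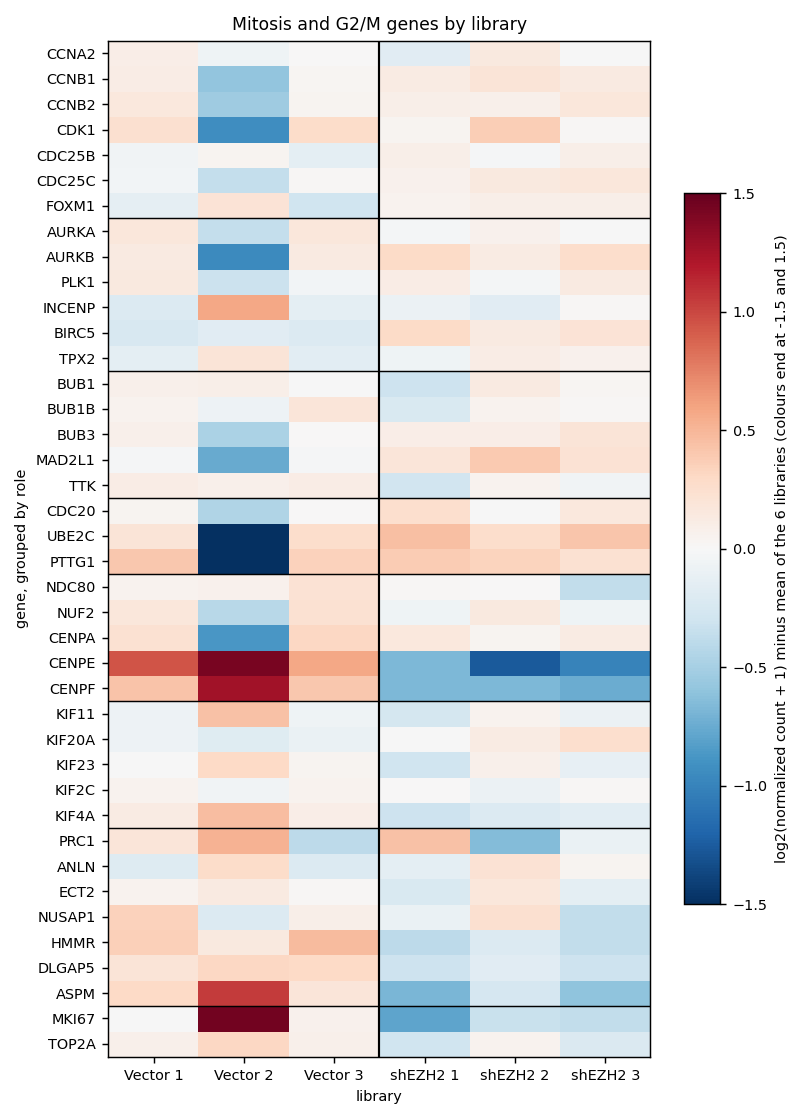
The 40 genes (rows, by role) in the 6 libraries (columns), where colour is log2(normalized count + 1) minus the mean of the 6 libraries and ends at -1.5 and 1.5. Vector replicate 2 is low for PTTG1 and UBE2C and high for MKI67 and CENPF, and CENPE is low in all 3 shEZH2 libraries.

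CENPE encodes the kinesin that carries chromosomes along microtubules to the spindle equator, and it showed the lowest log2 fold change of the 40 genes. It had 704, 981 and 548 normalized counts in the Vector libraries and 229, 153 and 182 in the shEZH2 libraries, in replicate order. Every shEZH2 value was under the lowest Vector value by a wide margin. The mean fell from 744 ± 220 to 188 ± 38.8 (SD, n = 3 each), or to 25.3% of the Vector level. This was a log2 fold change of -1.96 ± 0.25 (SE), with an adjusted p of 0.0111 in limma. It was -1.74 without Vector replicate 2 and -1.83 after a gene length trend was taken out within each library. The adjusted p ranged from 1.99e-09 to 0.0977 over the settings, and was over 0.05, at 0.0646 to 0.0977, when any 1 shEZH2 library was left out.

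CENPF, a large coiled-coil protein of the outer kinetochore that builds up in G2, had 3709, 6582 and 3632 normalized counts in Vector and 1726, 1726 and 1642 in shEZH2. The groups were far apart, and the shEZH2 libraries were nearly equal, while Vector replicate 2 was the highest. The mean fell from 4641 ± 1681 to 1698 ± 48.4 (SD, n = 3 each). Its log2 fold change was -1.39 ± 0.24 (SE, limma adjusted p = 0.0254), and -1.11 without Vector replicate 2. Over the settings the adjusted p ranged from 7.83e-09 to 0.150, and it was over 0.05 when any 1 shEZH2 library was left out and, at 0.0502, without Vector replicate 3. Removing the length trend left the log2 fold change at -1.21. The other kinetochore and centromere genes, NDC80 and NUF2 of the microtubule-binding complex and CENPA, the centromeric histone, were not called, with log2 fold changes from -0.23 to 0.22. Without Vector replicate 2, CENPA changed sign from 0.22 to -0.16 and NUF2 from 0.017 to -0.19.

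ASPM organizes microtubules at the spindle poles and is known for the primary microcephaly caused by its loss. It had 1084, 1823 and 999 normalized counts in Vector and 548, 739 and 578 in shEZH2, again with Vector replicate 2 the highest and with no overlap. On the log2 scale the change was -1.02 ± 0.25 (SE), past the threshold of the study, with a limma adjusted p of 0.0665, short of that call. It was -0.76 without Vector replicate 2 and -0.86 after removal of the length trend, and in these settings the adjusted p was 0.00197 and 0.0203. The range over all settings was 2.20e-06 to 0.260.

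HMMR encodes a microtubule-binding protein of the spindle that is also known as a hyaluronan receptor. It had 841, 728 and 914 normalized counts in Vector and 500, 571 and 509 in shEZH2. It was the only gene of the 5 in which Vector replicate 2 was the lowest Vector library, yet the groups did not overlap. The change of HMMR was -0.65 ± 0.14 (log2, SE), with a limma adjusted p of 0.0523. It was -0.74 without Vector replicate 2, but -0.57 and under the fold threshold without Vector replicate 3. The adjusted p ranged from 7.60e-07 to 0.250 over the settings.

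MKI67 encodes Ki-67, the proliferation marker that coats mitotic chromosomes and keeps them apart. It had 1207, 3300 and 1260 normalized counts in Vector and 696, 956 and 938 in shEZH2. The groups did not overlap, but the gap between Vector replicate 2 and its 2 partners was wider, in counts, than the gap between those partners and shEZH2. Ki-67 changed by -1.0 ± 0.38 (log2, SE), with a limma adjusted p of 0.174. It was at -0.53 without Vector replicate 2, short of 1.5-fold, so the call at the threshold was lost, while the adjusted p fell to 0.0169. The threshold call was also lost with array weights (-0.44) and when any 1 shEZH2 library was left out. After removal of the length trend it was -0.80, and the adjusted p ranged from 0.00126 to 0.434 over the settings.

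TOP2A, the topoisomerase that untangles sister chromatids and a standard marker of S to M phase, was not called. It had 5489, 6431 and 5477 normalized counts in Vector and 4206, 5387 and 4483 in shEZH2. All shEZH2 libraries were lower, but the gap between the groups was small against their spread. TOP2A had a log2 fold change of -0.31 ± 0.16 (SE), with a limma adjusted p of 0.278. DLGAP5 and KIF4A were lower at an unadjusted p under 0.05 but short of 1.5-fold, and were chosen after their values were seen. DLGAP5, a spindle assembly factor, had 736, 799 and 793 normalized counts in Vector and 519, 571 and 519 in shEZH2, and a log2 fold change of -0.53 (limma adjusted p = 0.0605). It passed the threshold at -0.66 once the length trend was removed (limma adjusted p = 0.0249). DLGAP5 also passed adjustment without Vector replicate 2 (limma adjusted p = 0.00743), in DESeq2 (adjusted p = 0.00476) and with array weights (limma adjusted p = 1.56e-05). Over all settings its adjusted p ran up to 0.278. KIF4A, a chromosome-bound kinesin, had 621, 786 and 613 normalized counts in Vector and 461, 494 and 510 in shEZH2, with a log2 fold change of -0.45 (limma adjusted p = 0.130).

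Cyclin B1, the partner of CDK1 at mitotic entry, had 2326, 1427 and 2186 normalized counts in Vector and 2343, 2446 and 2353 in shEZH2. The shEZH2 libraries lay just above Vector replicates 1 and 3, and Vector replicate 2 was low. The log2 fold change of CCNB1 was 0.30 with a 95% interval from -0.17 to 0.76, and 0.078 without Vector replicate 2. CDK1, the kinase itself, had 1280, 566 and 1308 normalized counts in Vector and 1112, 1399 and 1099 in shEZH2, with overlapping groups. Its log2 fold change was 0.28 (95% interval -0.47 to 1.03), and -0.11 without Vector replicate 2, so its sign rested on that library. FOXM1, the transcription factor that activates many of these genes, had a log2 fold change of 0.16 (95% interval -0.21 to 0.53), with 1555, 1958 and 1383 normalized counts in Vector and 1768, 1815 and 1819 in shEZH2. FOXM1 was at 0.30 without Vector replicate 2, with a limma adjusted p of 0.0555. None of the 7 genes of this role was called, and their log2 fold changes ran from -0.027 to 0.30 with a median of 0.22, or 0.078 without Vector replicate 2.

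PLK1, the kinase that matures centrosomes and promotes mitotic entry, had 1823, 1316 and 1606 normalized counts in Vector and 1782, 1618 and 1813 in shEZH2. Its groups overlapped, and its log2 fold change was 0.15 (95% interval -0.22 to 0.51), or 0.021 without Vector replicate 2. AURKB, the kinase of the chromosomal passenger complex that corrects faulty attachments, had 946, 445 and 945 normalized counts in Vector and 1048, 936 and 1037 in shEZH2. Here too Vector replicate 2 was far below the other libraries, and the log2 fold change of 0.45 (95% interval -0.23 to 1.13) was 0.089 without it. BIRC5, which encodes survivin of the same complex, had 1338, 1398 and 1366 normalized counts in Vector and 1920, 1737 and 1820 in shEZH2. Its groups were well separated and Vector replicate 2 was like its partners, with a log2 fold change of 0.42 (limma adjusted p = 0.0989), short of 1.5-fold. It passed adjustment without Vector replicate 2 (0.43, limma adjusted p = 0.00897), in DESeq2 (adjusted p = 0.0383) and with array weights (limma adjusted p = 5.95e-05), and over all settings the adjusted p ran up to 0.333. BIRC5 was chosen after its values were seen. The 6 kinases and passenger genes, with AURKA, its activator TPX2 and the scaffold INCENP, had a median log2 fold change of 0.11 and a range from -0.15 to 0.45, and none was called. Without Vector replicate 2, INCENP changed sign from -0.15 to 0.10 and AURKA from 0.013 to -0.16.

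The spindle checkpoint genes gave 0 calls among 5. BUB3, a checkpoint protein bound to unattached kinetochores, had 752, 513 and 717 normalized counts in Vector and 760, 761 and 812 in shEZH2. The shEZH2 libraries lay just above the 2 higher Vector libraries, with a log2 fold change of 0.25 (95% interval -0.15 to 0.66), or 0.083 without Vector replicate 2. MAD2L1, the inhibitor of CDC20 and named after its values were seen, had 1057, 636 and 1062 normalized counts in Vector and 1221, 1406 and 1243 in shEZH2. Its log2 fold change was 0.53 (limma adjusted p = 0.202) and 0.28 without Vector replicate 2. BUB1, BUB1B and TTK had log2 fold changes within -0.20 to -0.10.

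Of the 40 genes, PTTG1 and UBE2C were the lowest in Vector replicate 2 relative to its partners. UBE2C, the ubiquitin-conjugating enzyme of the anaphase-promoting complex, had 1215, 349 and 1274 normalized counts in Vector and 1450, 1274 and 1421 in shEZH2. PTTG1, which encodes securin, the inhibitor of separase, had 3485, 821 and 3344 in Vector and 3414, 3307 and 3079 in shEZH2. Both were chosen after their values were seen, and in both Vector replicate 2 was far below the other 5 libraries. The log2 fold changes of 0.76 (UBE2C, limma adjusted p = 0.355) and 0.62 (PTTG1, limma adjusted p = 0.484) were 0.15 and -0.065 without that library, and PTTG1 changed sign. CDC20, the activator of that complex and also chosen after its values were seen, had 1764, 1260 and 1729 normalized counts in Vector and 2055, 1719 and 1918 in shEZH2. Its groups overlapped, and its log2 fold change was 0.27, or 0.12 without Vector replicate 2.

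The 5 kinesins had a median log2 fold change of -0.20 and none was called, with a range from -0.45 for KIF4A to 0.24 for KIF20A. KIF11, which pushes the spindle poles apart, KIF23 of the central spindle and KIF2C, which takes microtubule ends apart, lay between -0.22 and -0.039. Among the 7 spindle and cytokinesis genes, ASPM and HMMR fell, and the median was -0.21. ANLN and ECT2, which act in the contractile ring, and NUSAP1 and PRC1 lay between -0.21 and 0.077. PRC1, the microtubule bundler of the central spindle, had 16.0 to 37.3 normalized counts and overlaps the AC068831.7 gene on the same strand, so reads of the shared part cannot be assigned to 1 of them. CENPA overlaps SLC35F6 on the same strand, with the same limit. CCNA2, CDC25C, FOXM1, NUF2, KIF20A, KIF23, KIF4A and ANLN overlap genes on the opposite strand, and the sources used here do not state whether counting used the strand. Per kilobase of gene length, the Vector levels ran from 5.18 normalized counts for PRC1 and 23.5 for NUSAP1 to 1114 for TPX2 and 1267 for PTTG1.

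**Figure D2:**
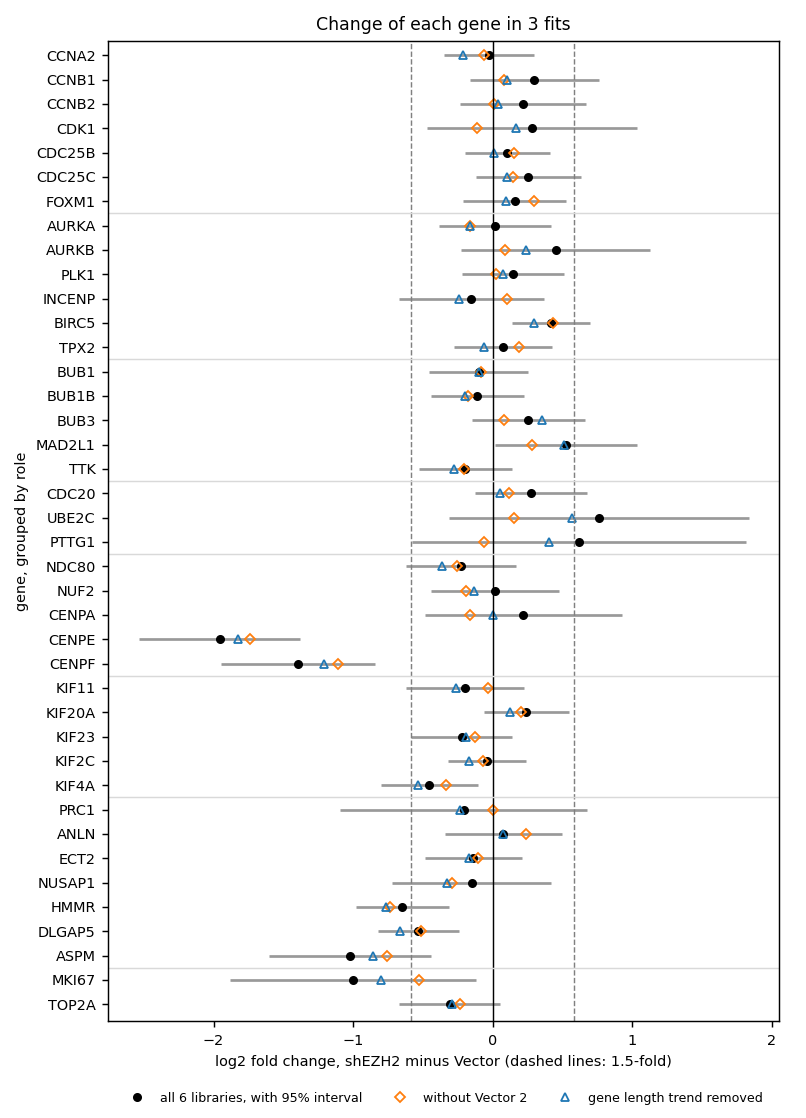
Log2 fold changes (horizontal axis, shEZH2 minus Vector) of the 40 genes by role, as black points with 95% intervals for all 6 libraries, orange diamonds without Vector replicate 2 and blue triangles with the gene length trend removed; dashed lines mark 1.5-fold. CENPE and CENPF stand farthest to the left in all 3 fits, and most intervals cross 0.

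The 5 called genes made up 12.6%, 21.6% and 12.5% of the counts summed over the 40 genes in the Vector libraries and 6.79%, 7.07% and 6.82% in the shEZH2 libraries. These 5 were chosen by their values, so the shares are a description. Summed over the other 35 genes, normalized counts were 52358, 48623 and 51384 in Vector and 50759, 54494 and 52609 in shEZH2, and the groups overlapped.

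Of the 5 genes that fell, 4 were the longest of the 40, with gene lengths of 9444 (CENPE), 10887 (ASPM), 11690 (CENPF) and 12807 bases (MKI67) in the table, while HMMR had 3936. Over the 40 genes, the deviation of Vector replicate 2 from its partners rose with the log2 gene length (Pearson r = 0.78, Spearman rho = 0.73), and the log2 fold change fell with it (r = -0.70, rho = -0.57). Leaving out Vector replicate 2 gave r = -0.47 and rho = -0.25, and removal of the length trend gave r = -0.58 and rho = -0.41. These correlations are across genes measured in the same libraries, which are not independent, and are given as a description. Among the 1986 genes tested that were at least as long as CENPE, the median log2 fold change was -0.22 and 14.4% were called lower. Without Vector replicate 2 these were -0.064 and 8.11%, and with the length trend removed -0.023 and 7.50%. Within that set of long genes, CENPE was among the lowest 0.101% by log2 fold change and CENPF among the lowest 1.16%, and without Vector replicate 2 these were 0.151% and 1.36%. ASPM was at 3.47% and MKI67 at 3.73%, and without that library at 4.53% and 9.87%.

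Without Vector replicate 2, limma called 4 of the 40 genes lower (CENPE, CENPF, ASPM and HMMR) and 0 higher at the threshold, against 5.64% and 7.05% of all genes. After adjustment it called 6 lower and 1 higher, against 9.07% and 9.78%. With the length trend removed, 6 were lower and 0 higher at the threshold, against 6.83% and 6.67%, since DLGAP5 joined the 5. After adjustment 5 were lower and 0 higher, against 4.32% and 4.11%.

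Genes around the 40 were read from 8 lists, written with earlier results of these data known. Over 7 mitotic lists, 158 of 159 genes were tested (CCNA1 was not analysed here), and 14 were higher and 16 lower at the threshold, beside 7.55% and 7.07% of all genes. Leaving out Vector replicate 2 gave 9 higher and 10 lower, beside 7.05% and 5.64% of all genes. These shares of all genes also apply to the counts of the single lists below. Among other mitotic kinases and their brakes, 3 of 19 were higher and 0 lower. WEE1 and PKMYT1, the kinases that keep CDK1 inactive, had log2 fold changes of 0.93 and 0.90, and CDC25A, a phosphatase that acts against them, had 0.77, with limma adjusted p-values of 0.0142, 0.0246 and 0.0422. Among DREAM, MuvB and CCAAT-binding regulators, 5 of 19 were higher and 0 lower, led by E2F1 (1.09), E2F8 (1.03), MYBL2 (0.89) and MYBL1 (0.88). MYBL2 encodes B-MYB, the factor that recruits FOXM1 to MuvB.

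Of the other kinetochore and centromere genes, 4 of 36 were higher and 3 lower at the threshold, and 0 higher and 1 lower after adjustment in limma. At the threshold there were 1 higher and 3 lower without Vector replicate 2, and 2 higher and 3 lower with the length trend removed. SPC25 of the NDC80 complex was higher, at 1.5 on the log2 scale (1.0 without Vector replicate 2), and SGO2, a protector of centromeric cohesion, was lower at -0.98. Other kinesin and spindle genes had 1 of 31 higher and 7 lower, with KIF20B at -0.98, KIF14 at -0.78 and KIF15 at -0.78, and STMN1, a microtubule destabilizer, higher at 1.01 (0.54 without Vector replicate 2). Without Vector replicate 2 these were 0 higher and 3 lower, with KIF20B at -0.80, KIF14 at -0.56 and KIF15 at -0.60. After adjustment in limma 0 were higher and 1 was lower (KIF20B, adjusted p = 0.0355). Condensin and cohesin genes had 0 of 20 higher and 3 lower, with ESCO1, a cohesin acetyltransferase, at -1.20, SMC3 of cohesin at -0.85 and SMC4 of condensin at -0.72, and 2 lower when Vector replicate 2 was left out. In that fit SMC4 was at -0.58, just short of 1.5-fold. The anaphase-promoting complex had 0 of 18 called in either direction by limma, 0 by DESeq2 and 0 by edgeR, with 0 higher and 0 lower at an unadjusted limma p under 0.05, and the centrosome list had 1 of 15 higher and 3 lower. For that list, leaving out Vector replicate 2 gave 0 higher and 2 lower, and removing the length trend gave 0 higher and 1 lower.

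The DNA replication and nucleotide supply list had the most calls of the 8 lists, with 16 of 35 higher and 0 lower, and a median of 0.56 (0.53 without Vector replicate 2) beside 0.039 over all genes. MCM6, a subunit of the replicative helicase, had a log2 fold change of 1.67, and TK1, thymidine kinase, had 1.54. CCNE2 and GINS2 had 1.55 and 1.32, with limma adjusted p-values of 0.0789 and 0.0819. CCNE2 was low, with 10.5, 21.0 and 20.4 normalized counts in Vector, and GINS2 was at 0.89 without Vector replicate 2. The difference between this list and the 40 genes was not tested.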

How the data were processed

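RNA from 3 Vector and 3 shEZH2 libraries of HMV-II cells was sequenced. Reads on each gene were counted by the authors (featureCounts v1.5.0-p3), who compared the groups with DESeq2 1.20.0; the aligner and strandedness are not given in the sources used here. The deposited signal values are gene counts that the authors divided by 1 size factor per library. In each library 100% of values were whole multiples of 1 read (tolerance 0.01), which gave back the reads. Columns with the log2 fold changes and p-values that the authors computed before depositing the table were not used, and 0 single-library columns were left out. Gene coordinates in the table are GRCh38 (29.4% of 20588 genes share an end with it, against 0.525% for GRCh37), although the submitters' processing notes name hg19.

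Here shEZH2 was compared with Vector in limma 3.58.1 (lmFit, eBayes with trend) on log2(normalized count + 1), over 15251 genes with a mean of at least 10, so fold changes of low genes are understated. Calls used p under 0.05 and 1.5-fold (0.585 on the log2 scale), and Benjamini-Hochberg adjustment ran over all genes tested. DESeq2 1.42.0 and edgeR 4.0.16 were run on the recovered reads. Other alternatives were TMM scaling, pseudocounts of 0.1 and 5, no minimum mean and a mean of at least 50, a replicate block, array weights, a fold threshold of 1 on the log2 scale, each library left out in turn, and removal of a gene length trend by loess (span 0.5) within each library. The fits were tested on simulated data that held neither an outlying library nor a gene length trend, so that test does not cover these features. Genes given with a value in every library were those called, or named for their role (MKI67, TOP2A, FOXM1, CCNB1, CDK1, PLK1, AURKB, CENPF, ASPM, BUB3), with DLGAP5, KIF4A, BIRC5, MAD2L1, UBE2C, PTTG1 and CDC20 added after their values were seen; of other lists, at most 4 called genes each, by size of change. The 40 genes and all lists were chosen with earlier results of these data known. The markers CD3E and KRT5 were not analysed here. R 4.3.3 was used.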

Additional observations from a re-analysis of the deposited data

How the results depend on the processing

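Under every alternative, 4 to 6 of the 40 genes were called lower at the threshold, with 4 to 5 when 1 library was left out, and the number called higher stayed at 0 except without Vector replicate 1 and without Vector replicate 3 (0 to 2, MAD2L1 in both and UBE2C in the latter). The counts after adjustment depended most on the fit. Lower after adjustment were 12 with array weights, 6 with DESeq2, 5 with the gene length trend removed (also 5 with the replicate block added) and 0 to 6 with 1 library left out, where 0 came when any 1 shEZH2 library was left out, 1 without Vector replicate 3 and 6 without Vector replicate 2. Higher after adjustment were 7 with array weights, 1 with DESeq2 and 0 to 1 with 1 library left out. Shares of all genes called are given above for DESeq2, edgeR, the length trend removed and the fit without Vector replicate 2. They were not computed for the other alternatives, array weights among them, so those counts cannot be set against a background share. The median log2 fold change was -0.15 with the length trend removed, with or without the block, and -0.069 to 0.042 with 1 library left out. CDK1 reversed to -0.19 and PTTG1 to -0.096 with array weights, and with 1 library left out CDK1 ran from -0.11 to 0.49 and PTTG1 from -0.065 to 0.98. The cause was not tested.

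Whether the replicate numbers pair the libraries was not settled. Deviations of same-numbered libraries from their group means correlated at 0.28, 0.22 and -0.11. The same-numbered shEZH2 library was the best match for Vector replicates 1 and 2, while Vector replicate 3 correlated best with shEZH2 replicate 1 (0.25). Deviations within a group sum to 0 and Vector replicate 2 stood apart, so these correlations cannot decide it. With the replicate block, 3 of the 40 genes were lower after adjustment in place of 2, and the counts at the threshold were 5 lower and 0 higher. With 3 libraries per group the 95% intervals were wide where Vector replicate 2 was apart, as for CDK1, from -0.47 to 1.03.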
